A study of Mus musculus with 8 samples.

Results

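The proteasome genes of the mouse left ventricle were compared between 4 samples from mice infused with the pressor peptide angiotensin II (ANG II), which drives cardiac hypertrophy, and 4 from mice infused with saline (control). Members were chosen by gene symbol, as Psma to Psmg followed by a number, leaving out names of pseudogenes and the inducible immunoproteasome genes Psmb8, Psmb9 and Psmb10. The rule found 47 of the 55679 genes in the table: 16 of the core particle, 17 of the regulatory particle, 13 that encode assembly chaperones, activators or an inhibitor, and Psmc3ip, a meiotic recombination factor that shares only the name. Of these, 46 had a mean of at least 0.1 FPKM (fragment counts scaled to transcript length and library depth) and were tested. Psmb11, the catalytic subunit of the thymus, was not tested, since its value was 0.0251 FPKM (1 fragment) in control 3 and 0 in the other 7 libraries.

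All animals were wild-type male C57BL/6J mice, and their age was not given in the sources used here. Each received ANG II at 1500 ng/kg/min or saline for 7 days from an osmotic pump placed under the skin, and the heart was flushed with saline before the ventricle was taken. Each of the 8 libraries was one ventricle sample, with messenger RNA enriched on oligo(dT) beads, and nothing in the labels pairs a control with an ANG II sample. The study compared the groups to find immune genes that change in hypertensive hypertrophy, and the proteasome genes are measured in the same libraries.

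The 26S proteasome degrades proteins that carry ubiquitin chains. Its core particle is a barrel of stacked alpha and beta rings, with the peptidase sites inside on Psmb6 (caspase-like), Psmb7 (trypsin-like) and Psmb5 (chymotrypsin-like). The regulatory particle caps the barrel: a base with a ring of ATPases (Psmc) unfolds the substrate, and a lid around the deubiquitinase Psmd14 removes the chains. In heart muscle this system clears worn contractile proteins and enzymes, and its subunits are known to be transcribed together, in part under the factor Nfe2l1.

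The libraries held 14455720 to 16561990 fragments, read back from the steps of the FPKM values, and a value of 0 allows up to 3 fragments (counting error only). Defining cardiomyocyte genes were high in every library, with 8 markers summing to between 34297 and 35167 FPKM in control and between 25103 and 27007 FPKM in ANG II, so the tissue label held even though a protocol label names another cell source. Marker sums were higher in ANG II for macrophages (267 to 337 FPKM in control, 594 to 828 in ANG II), fibroblasts (524 to 790 against 3355 to 4006), erythroid cells (96.8 to 487 against 581 to 2083) and dividing cells (6.41 to 13.3 against 30.5 to 75.4). In these lists 8 of 8 macrophage, 8 of 8 fibroblast, 5 of 5 erythroid and 8 of 8 mitosis genes rose. Of the endothelial and T cell markers, 2 of 6 rose in each list. Of the 8 cardiomyocyte genes, 4 fell and 0 rose, though 3 had a positive log2 fold change. As background, 28.4% of all genes tested rose and 4.91% fell. Mitochondrially encoded genes took 26.3 to 27.0% of fragments in control and 19.2 to 21.8% in ANG II. The median log2 fold change of all 19364 genes tested was 0.15 as deposited and 0.00 after median-of-ratios scaling. The part of these shifts in the values below was not tested, and in bulk tissue fewer cells of a type and less RNA per cell cannot be told apart.

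Proteasome transcripts were abundant in the ventricle and differed little between the groups. The 31 subunits used by the 26S particle in most tissues (the members of the core and regulatory particles without Psma8, a germline alpha subunit, and Psmb11) had means over all 8 libraries between 24.0 FPKM for Psmb5 and 187 FPKM for Psmc3. Of these, 30 had a 95% interval of the log2 fold change that lay within 0.5 of 0, the exception being the lid subunit Psmd8. As deposited, 13 of the 31 rose at an adjusted p under 0.05 and 0 fell, but all 13 rises were under 0.5 on the log2 scale, and after median-of-ratios scaling 1 rose and 8 fell. As background, 28.4% of all genes tested rose and 4.91% fell at that threshold as deposited, against 14.6% and 13.1% after median-of-ratios scaling. Among the 2589 genes with a mean from 30 to 200 FPKM, the range of most subunits, 41.1% rose and 11.3% fell as deposited. When the fold threshold was added, 0 of the 31 subunits were called, against 15.4% of all genes tested.

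**Figure D1:**
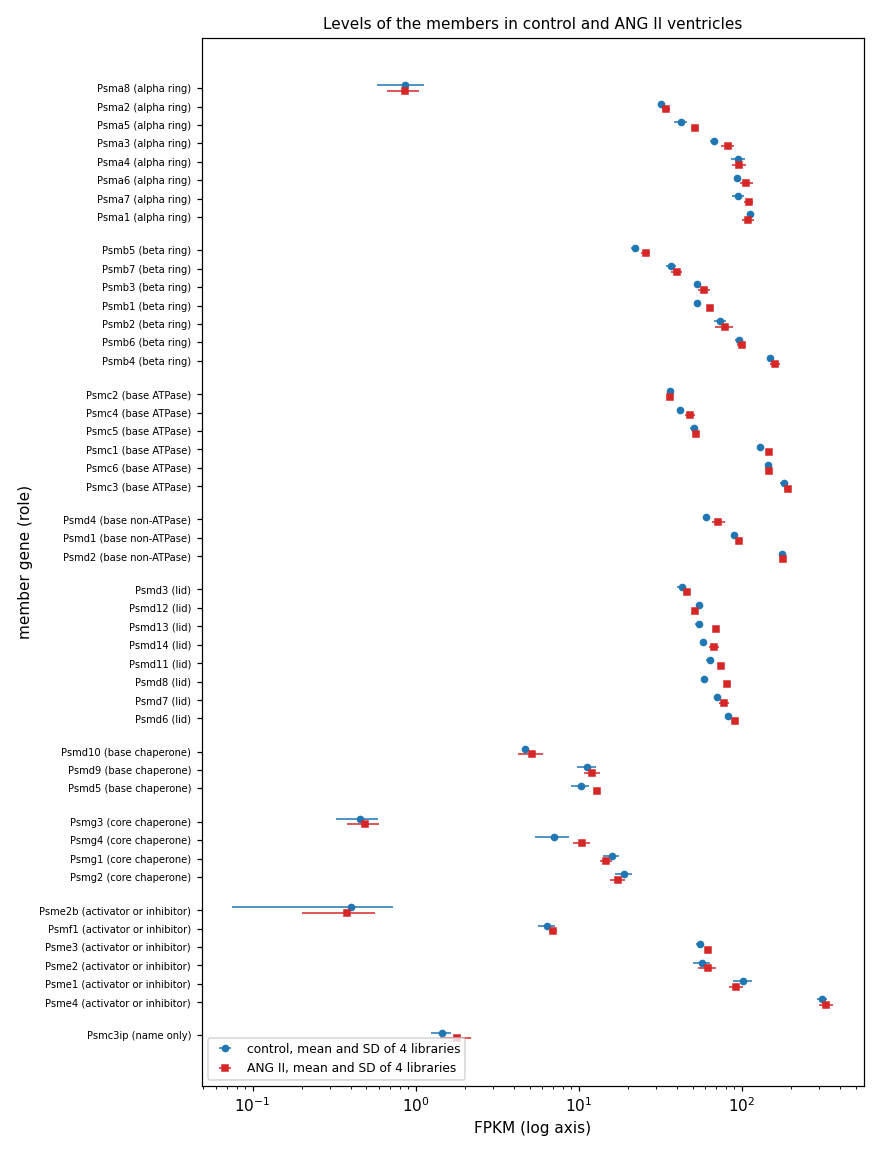
Mean FPKM (log axis) of each member except Psmb11, which is not drawn, in control (blue circles) and ANG II (red squares), with bars for the SD of 4 libraries, ordered by role. The 31 subunits used in most tissues lie between 22.2 FPKM (Psmb5 in control) and 191 FPKM (Psmc3 in ANG II), the germline subunit Psma8 lies below 1 FPKM, and Psme4 lies above every subunit with the transcript length as deposited, though not on its longest coding transcript.

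Members of one complex were not measured at one level. Per kilobase of transcript, Psmc3, an ATPase of the base, had a control mean of 182 ± 9.87 FPKM and an ANG II mean of 191 ± 10.6 (SD over 4 libraries), and Psmd2, a base scaffold on which shuttle factors dock, had 178 ± 8.83 and 179.7 ± 3.44. Psmb4, a beta subunit without peptidase activity, followed at 149.9 ± 6.56 and 159.9 ± 11.3 FPKM. At the other end, Psmb5 had 22.2 ± 1.11 and 25.8 ± 1.58 FPKM. The highest mean was thus 7.78 times the lowest, although this spread depends on the transcript length used: with the longest coding transcript of each gene it was 4.75 times, and the 2 orders had a Spearman coefficient of 0.67 across the 31 genes. The order itself was nearly the same in both groups (Spearman coefficient 0.98 across genes, which are not independent replicates). The largest moves were 4 places, for Psmd8, from place 18 to 14, and for Psmd12, from place 20 to 24.

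In the core particle, 5 of the 15 tested genes rose in ANG II as deposited and 0 fell, beside 28.4% and 4.91% of all genes tested. They were the alpha subunits Psma3, Psma5 and Psma7 and the beta subunits Psmb1 and Psmb5. The median log2 fold change of the 15 was 0.11, beside 0.15 for all genes tested, and it was -0.10 after median-of-ratios scaling, where 0 rose and 2 fell, beside 14.6% and 13.1% of all genes. Groups did not overlap for 5 of the 15, all higher, against 28.7% of all genes tested.

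Psma5 gave 39.0, 47.5, 42.3 and 40.0 FPKM in control and 53.9, 48.1, 54.8 and 51.2 in ANG II. Every ANG II value lay above every control value, although ANG II 2 exceeded control 2 by little. The log2 fold change was 0.30 ± 0.071 (SE, adjusted p = 0.00951). Other transcripts, mainly those of Gm8394, hold 49.96% of its 50-base words, so its reads cannot be fully told apart from theirs. Psma3, another alpha subunit, gave 73.1, 66.3, 64.9 and 66.1 FPKM in control and 79.9, 77.9, 93.5 and 78.4 in ANG II. Its groups did not overlap, with 1 high library in each (control 1 and ANG II 3), and it rose by 0.28 ± 0.069 (SE, adjusted p = 0.0110). Psmb1, a beta subunit without peptidase activity, had the smallest adjusted p of the core (0.00306). This gene gave 54.2, 55.4, 52.0 and 51.1 FPKM in control and 64.3, 60.5, 66.6 and 63.5 in ANG II, a rise of 0.26 ± 0.049 on the log2 scale with no overlap. Under median-of-ratios scaling the differences of Psma5 (0.07), Psma3 (0.05) and Psmb1 (0.03) all had an adjusted p of at least 0.495.

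Of the peptidase subunits, Psmb5 passed the test and Psmb6 and Psmb7 did not, but the intervals of their log2 fold changes overlapped and the difference between them was not tested. Psmb5, the target of the drug bortezomib, gave 22.5, 23.2, 22.5 and 20.6 FPKM in control and 24.4, 25.3, 28.1 and 25.7 in ANG II. The groups did not overlap, and it rose by 0.21 ± 0.062 (SE, adjusted p = 0.0265), with an adjusted p up to 0.0689 when control 3, control 4, ANG II 3 or ANG II 4 was left out. Under median-of-ratios scaling the log2 fold change was -0.01 (adjusted p = 0.931). Of its 50-base words 54.1% are shared, mainly with Gm3375, which was listed at 0 in the 8 libraries. Psmb6 gave 104, 91.9, 96.8 and 93.3 FPKM in control and 104, 92.6, 105 and 98.0 in ANG II. These ranges overlapped almost fully, with a log2 fold change of 0.05 (95% interval -0.08 to 0.18, adjusted p = 0.552), which became -0.18 (adjusted p = 0.0374) under median-of-ratios scaling. Psmb7, at 40.1, 38.4, 33.6 and 36.1 FPKM in control and 39.2, 37.2, 44.7 and 39.5 in ANG II, had a log2 fold change of 0.11 (95% interval -0.05 to 0.28, adjusted p = 0.268), and -0.11 under that scaling.

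At the low end of the core, Psma1 gave 117, 109, 115 and 110 FPKM in control and 107, 103, 124 and 106 in ANG II. Apart from ANG II 3, its ANG II values lay below every control value, and the log2 fold change was -0.04 as deposited (adjusted p = 0.685) and -0.26 after median-of-ratios scaling (adjusted p = 0.0130). Psma4 (0.01), Psmb2 (0.08) and Psma8 (0.01) did not pass the test either, with intervals of -0.17 to 0.20, -0.12 to 0.29 and -0.29 to 0.30. Psma8 is used in male germ cells and was barely present, at 9 to 18 fragments per library in control and 10 to 17 in ANG II. The remaining alpha and beta subunits, Psma2, Psma6, Psmb3 and Psmb4, had log2 fold changes between 0.09 and 0.18 with adjusted p between 0.063 and 0.278. Psma7 rose by 0.22 (adjusted p = 0.0338), but no longer passed without control 3, control 4, ANG II 1, ANG II 3 or ANG II 4 (adjusted p up to 0.0950), and it had a log2 fold change of -0.01 under median-of-ratios scaling.

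**Figure D2:**
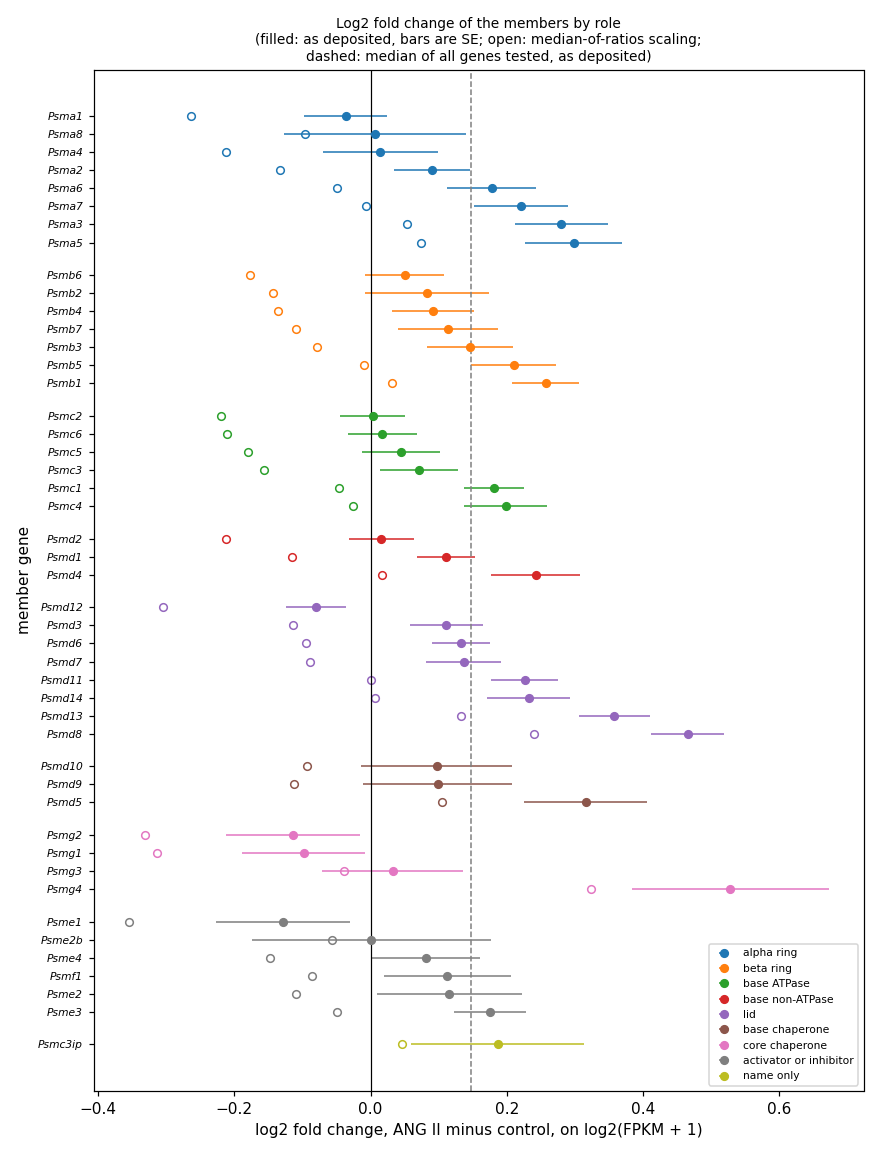
Log2 fold change (ANG II minus control, on log2(FPKM + 1)) of the 46 tested members by role: filled points with SE bars are the values as deposited, open points those after median-of-ratios scaling, and the dashed line is the median of all genes tested (0.15). Most filled points lie between 0 and 0.3 around that line, most open points lie below 0, and Psmd8 and Psmg4 lie farthest to the right on both scales.

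In the regulatory particle, 8 of the 17 genes rose as deposited and 0 fell, beside 28.4% and 4.91% of all genes tested. They were Psmc1 and Psmc4 of the ATPase ring (2 of 6), the ubiquitin receptor Psmd4 of the base (1 of 3), and Psmd6, Psmd8, Psmd11, Psmd13 and Psmd14 of the lid (5 of 8). The median log2 fold change was 0.13 as deposited and -0.09 after median-of-ratios scaling, where Psmd8 rose and 6 genes fell (Psmc2, Psmc3, Psmc5, Psmc6, Psmd2 and Psmd12), beside 14.6% and 13.1% of all genes. Groups did not overlap for 10 of the 17 genes in the higher direction and for 1, Psmd12, in the lower direction, against 28.7% and 5.06% of all genes tested.

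The lid held both the largest rise and the only subunit whose libraries were all lower. Psmd8, a subunit that joins late in the assembly of the lid, gave 57.2, 61.6, 61.0 and 55.9 FPKM in control and 81.6, 87.2, 80.6 and 77.7 in ANG II. The lowest ANG II library lay well above the highest control library, a 38.7% higher mean. It rose by 0.47 ± 0.054 (SE, 95% interval 0.35 to 0.59, adjusted p = 0.000185), on 952 to 1163 fragments per library in control and 1403 to 1601 in ANG II. Psmd13, a scaffold subunit of the lid, gave 52.1, 58.0, 51.8 and 55.8 FPKM in control and 72.4, 67.3, 69.4 and 70.8 in ANG II. The groups again lay apart, with a rise of 0.36 ± 0.052 (SE, adjusted p = 0.000671). Psmd12, also a scaffold subunit, went the other way, with 57.0, 53.5, 53.5 and 56.3 FPKM in control and 53.1, 51.8, 51.2 and 52.1 in ANG II. Its groups did not overlap but lay close to each other, and the log2 fold change of -0.08 ± 0.044 did not pass the test as deposited (SE, adjusted p = 0.195).

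Each of these 3 lid genes was also fitted under the other scalings. Psmd8 rose under median-of-ratios scaling (0.24, adjusted p = 0.0145), quantile normalization (0.29, adjusted p = 0.00295), after removal of mitochondrially encoded and top genes (0.32, adjusted p = 0.00166) and when libraries were scaled on the 31 subunits themselves (0.32, adjusted p = 0.00460). As background, 12.6% of all genes tested rose and 15.3% fell after quantile normalization, 17.8% rose and 8.93% fell after that removal, and 17.3% rose and 8.36% fell on the scale of the 31 subunits. Psmd13 rose under the last 3 of these scalings (adjusted p = 0.0211, 0.0159 and 0.0198) and not under median-of-ratios scaling (0.13, adjusted p = 0.0920). Psmd12 fell under all 4, by 0.30, 0.25, 0.22 and 0.23 on the log2 scale, with adjusted p between 0.000903 and 0.0132. A ratio within a library needs no scaling: Psmd8 over Psmd12 was 1.00, 1.15, 1.14 and 0.994 in control and 1.54, 1.69, 1.57 and 1.49 in ANG II, and Psmd13 over Psmd12 was 0.915, 1.08, 0.969 and 0.992 against 1.36, 1.30, 1.36 and 1.36. Neither ratio overlapped between the groups. Both pairs were formed after the values were seen and are given as a description. None of the 50-base words of Psmd8 or Psmd12 occurs in another gene, and 8.23% of those of Psmd13 do.

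**Figure D3:**
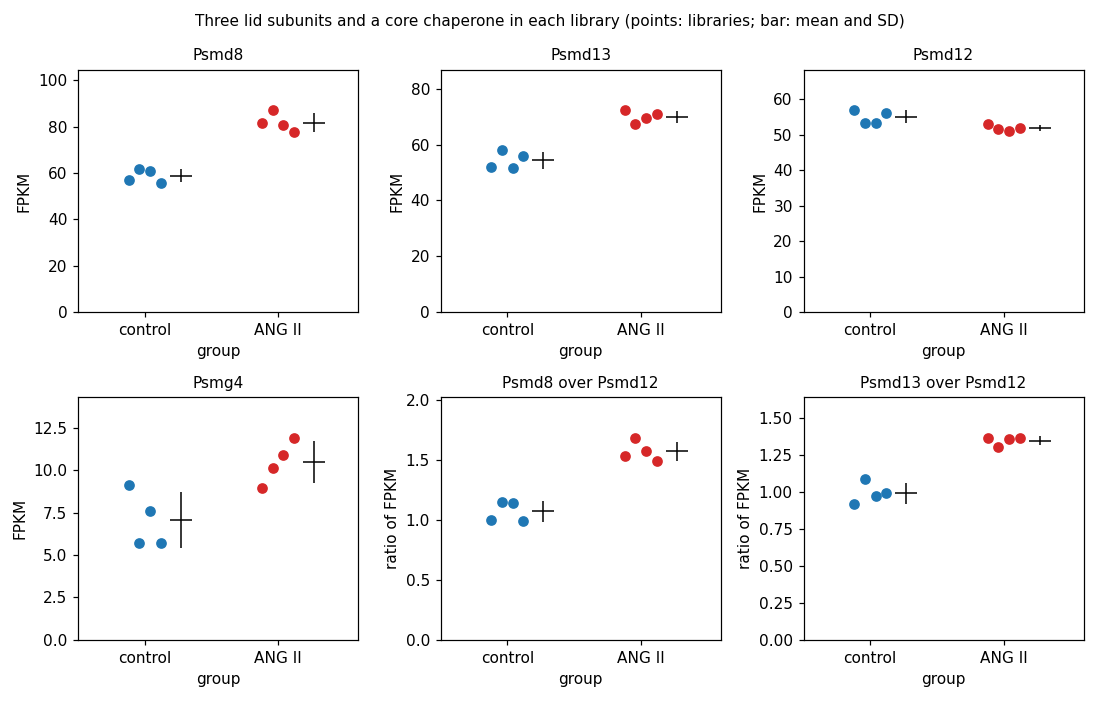
FPKM of Psmd8, Psmd13, Psmd12 and Psmg4 and the ratios of Psmd8 and of Psmd13 to Psmd12 in each library, with points for libraries and a bar for the mean and SD of 4. Psmd8 runs from 55.9 to 61.6 FPKM in control and from 77.7 to 87.2 in ANG II, Psmd12 lies slightly lower in ANG II, and the Psmg4 groups overlap.

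Among the other lid genes, Psmd14, the deubiquitinase of the particle, gave 60.1, 58.8, 57.1 and 54.8 FPKM in control and 70.7, 70.7, 70.2 and 60.7 in ANG II. One ANG II library (ANG II 4) lay close to control 1, and the rise was 0.23 ± 0.061 (SE, adjusted p = 0.0156) as deposited, with 0.01 under median-of-ratios scaling. Psmd11, which stabilises the assembled particle, rose by 0.23 (adjusted p = 0.00621) without overlap, and Psmd6 by 0.13 (adjusted p = 0.0377, up to 0.0930 without control 1, control 3, control 4, ANG II 1, ANG II 2 or ANG II 3). Under median-of-ratios scaling the log2 fold change of Psmd6 was -0.09, and it was negative under the other 3 scalings too, while that of Psmd11 was 0.00 there. Psmd3 (0.11) and Psmd7 (0.14) did not pass the test.

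In the base, the log2 fold changes of the 6 ATPases ran from 0.00 for Psmc2 to 0.20 for Psmc4. Psmc4 gave 41.6, 45.0, 40.1 and 41.4 FPKM in control and 51.6, 50.8, 46.1 and 45.1 in ANG II, where ANG II 3 and 4 lay close to control 2. It rose by 0.20 ± 0.061 (SE, adjusted p = 0.0320), but not without control 1, control 3, control 4, ANG II 1 or ANG II 2 (adjusted p up to 0.0880). Psmc1 rose by 0.18 ± 0.044 (SE, adjusted p = 0.0110). Under median-of-ratios scaling neither passed, with -0.03 for Psmc4 (adjusted p = 0.801) and -0.05 for Psmc1 (adjusted p = 0.564). Psmc2, at 37.9, 36.1, 36.7 and 35.0 FPKM in control and 36.6, 35.0, 37.4 and 37.0 in ANG II, had a log2 fold change of 0.00 as deposited (95% interval -0.10 to 0.11), with ranges that overlapped almost fully. Psmc6 had a log2 fold change of 0.02 (95% interval -0.10 to 0.13), and Psmc2 and Psmc6 fell by 0.22 and 0.21 under median-of-ratios scaling (adjusted p = 0.00545 and 0.00710). Psmc3 (0.07) and Psmc5 (0.04) were between these. Of the other base subunits, Psmd4, a receptor for ubiquitin chains, gave 60.7, 61.9, 58.6 and 61.5 FPKM in control and 69.0, 72.5, 65.9 and 81.3 in ANG II. The groups lay apart, with ANG II 4 the highest, and Psmd4 rose by 0.24 ± 0.065 (SE, adjusted p = 0.0167), but it did not pass under median-of-ratios (0.02, adjusted p = 0.884) or any of the other 3 scalings. Its neighbours in the base, the scaffolds Psmd1 (0.11, adjusted p = 0.0715) and Psmd2 (0.02, adjusted p = 0.833), did not pass the test.

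The promoters of the subunit genes were read for short known motifs, since these genes are known to be transcribed together. Windows from 250 bases before to 50 after the annotated start were found for 39 member genes (RefSeq, GRCm38.p6). The letters CCGGAAG, a core of ETS factor sites, were found on either strand in 8.86% of all 32851 windows. They stood in 10 of the 15 windows of regulatory particle genes (66.7%, from 14 genes) and in 1 of the 13 windows of core genes (7.69%, from 12 genes). The letters TGANNNNGC, contained in antioxidant response elements to which Nfe2l1 and small Maf proteins bind, ran the other way, with 10 of 13 core windows and 6 of 15 regulatory windows beside 41.3% of all windows. CCAAT was found in 7 of 13, 4 of 15 and 37.4%, and CACGTG in 1 of 13, 0 of 15 and 7.15%. A CCAAT read on the opposite strand can lie wholly within TGANNNNGC, so these shares are not independent, and other matches may overlap in part. The motifs were chosen with the values known, genes can have more than 1 window, and a match is only a description of letters.

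To show these letters beside the genes that moved apart, 120 bases around the start (100 before and 20 after) follow for the 3 lid genes, for the ATPase Psmc1, which rose as deposited, and for the core genes Psma5 and Psmb5. Capitals mark CCGGAAG or its complement CTTCCGG in the first 4 and TGANNNNGC, on either strand, in the last 2.
Psmd8, chr7:29180654-29180773, minus strand: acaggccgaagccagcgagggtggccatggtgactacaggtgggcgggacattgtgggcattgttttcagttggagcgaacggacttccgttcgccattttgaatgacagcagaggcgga
Psmd13, chr7:140882294-140882413, plus strand: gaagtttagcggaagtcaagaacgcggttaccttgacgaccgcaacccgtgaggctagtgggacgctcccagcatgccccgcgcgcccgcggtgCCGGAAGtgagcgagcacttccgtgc
Psmd12, chr11:107479428-107479547, plus strand: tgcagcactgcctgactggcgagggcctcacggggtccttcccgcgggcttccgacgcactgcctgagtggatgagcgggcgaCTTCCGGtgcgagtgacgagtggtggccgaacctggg
Psmc1, chr12:100110102-100110221, plus strand: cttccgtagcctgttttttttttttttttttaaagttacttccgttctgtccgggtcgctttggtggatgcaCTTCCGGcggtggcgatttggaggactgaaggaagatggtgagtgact
Psma5, chr3:108256826-108256945, plus strand: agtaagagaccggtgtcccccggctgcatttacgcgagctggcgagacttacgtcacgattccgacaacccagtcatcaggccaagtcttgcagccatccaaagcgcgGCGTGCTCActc
Psmb5, chr14:54617976-54618095, minus strand: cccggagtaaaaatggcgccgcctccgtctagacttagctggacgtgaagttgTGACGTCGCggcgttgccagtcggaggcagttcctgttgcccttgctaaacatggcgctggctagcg
Psmd12 and Psmd13, which moved in opposite directions under 3 of the 4 scalings at an adjusted p under 0.05, both carry the ETS letters within 20 bases of the start. Psmd8, with the largest rise of the subunits, does not carry the exact letters CCGGAAG or CTTCCGG in its whole window. Other forms of ETS sites were not searched, and the part of any motif in these differences was not tested.

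Among the assembly factors, Psmg4 was the single called member of all 46, against 15.4% of all genes tested. This small chaperone of the alpha ring gave 9.13, 5.72, 7.62 and 5.71 FPKM in control and 8.97, 10.1, 10.9 and 11.9 in ANG II. The groups overlapped, since control 1 exceeded ANG II 1. It rose by 0.53 ± 0.144 (SE, adjusted p = 0.0182) on 43 to 68 fragments per library in control and 70 to 98 in ANG II. The adjusted p was 0.0554 without control 4 and 0.0593 without ANG II 4, and the log2 fold change was 0.45 without control 2, under the threshold of 0.5. Under median-of-ratios scaling the adjusted p was 0.119 (log2 fold change 0.32). Of its partners in alpha-ring assembly, Psmg1 (-0.10) and Psmg2 (-0.11) did not pass the test as deposited and fell by 0.31 and 0.33 under median-of-ratios scaling (adjusted p = 0.0349 and 0.0266). Psmg3, the partner with which Psmg4 forms a pair, had 7 to 13 fragments in any library and a log2 fold change of 0.03 (95% interval -0.20 to 0.26). Psmd5, a chaperone of the base, gave 11.4, 11.2, 8.55 and 10.2 FPKM in control and 13.6, 12.3, 13.3 and 12.9 in ANG II. Its groups did not overlap, and it rose by 0.32 ± 0.090 (SE, adjusted p = 0.0227), with 0.10 under median-of-ratios scaling and an adjusted p up to 0.0654 without control 4, ANG II 1 or ANG II 3. The base chaperones Psmd9 and Psmd10 (gankyrin) both had a log2 fold change of 0.10 and did not pass.

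The activators that dock on the core barrel were measured at very different levels. Psme4 (PA200), an activator linked to acetylated histones and sperm formation, gave 287, 305, 334 and 323 FPKM in control and 345, 370, 289 and 321 in ANG II. As deposited that was above every proteasome subunit, and the groups overlapped, with ANG II 1 and ANG II 2 above every control library (log2 fold change 0.08, 95% interval -0.10 to 0.26). The mean transcript length in its FPKM was 1433 bases over 7 annotated transcripts, so its place depends on that length: on the longest coding transcript of each gene (6491 bases for Psme4) its mean was 71.0 FPKM, below 6 subunits, the highest being Psmc3 at 96.5 FPKM. Psme3, the nuclear activator PA28-gamma, gave 53.4, 53.0, 58.9 and 55.7 FPKM in control and 65.4, 63.2, 59.3 and 62.1 in ANG II. The highest control and the lowest ANG II library nearly met, and it rose by 0.18 ± 0.052 (SE, adjusted p = 0.0273), with -0.05 under median-of-ratios scaling. Leaving out any library but control 3 or ANG II 3 took Psme3 above the threshold of 0.05 (adjusted p up to 0.0746). The interferon-inducible activators Psme1 and Psme2 did not pass the test. Psme1 gave 120, 90.4, 105 and 92.8 FPKM in control and 92.7, 88.8, 106 and 84.6 in ANG II, broadly overlapping ranges, with a log2 fold change of -0.13 (95% interval -0.35 to 0.09) as deposited and -0.36 (adjusted p = 0.0221) under median-of-ratios scaling. Psme2 had 0.12 (95% interval -0.12 to 0.35), and it shares 28.3% of its 50-base words, mainly with Psme2b, which had at most 10 fragments in a library. The inhibitor Psmf1 (PI31) had 0.11 (95% interval -0.10 to 0.32), and Psmc3ip had 0.19 (95% interval -0.10 to 0.47) on 19 to 36 fragments.

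In both groups the libraries differed more in the core than in the regulatory particle. The mean difference from control on log2(FPKM), without a pseudocount, had an SD over the 4 libraries of 0.0542 in the core and 0.0263 in the regulatory particle in control, and of 0.0798 and 0.0112 in ANG II. Control 1 was the highest of its group in 8 of the 14 core subunits and control 2 in 6, and control 2 was the highest in 9 of the 17 regulatory subunits. Over the 14 core subunits the mean difference was 0.13, 0.07, 0.26 and 0.12 in ANG II 1 to 4, and over the 17 regulatory subunits it was 0.16, 0.13, 0.15 and 0.16. ANG II 3 was the highest of its group in 11 of the 14 core subunits and ANG II 2 the lowest in 11, while for the regulatory subunits no ANG II library was highest in more than 7 or lowest in more than 6. Averaged over the group, the difference was 0.145 in the core and 0.147 in the regulatory particle. ANG II 3 also had the highest mitochondrially encoded share (21.8%, against 19.2 to 19.5% in the other 3) and the highest macrophage marker sum (828 FPKM, against 594 to 731). The part of either in the core values was not tested. Without ANG II 3, 3 core genes rose, compared with 5 in all libraries, and the count was also 3 without control 3, control 4 or ANG II 4.

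**Figure D4:**
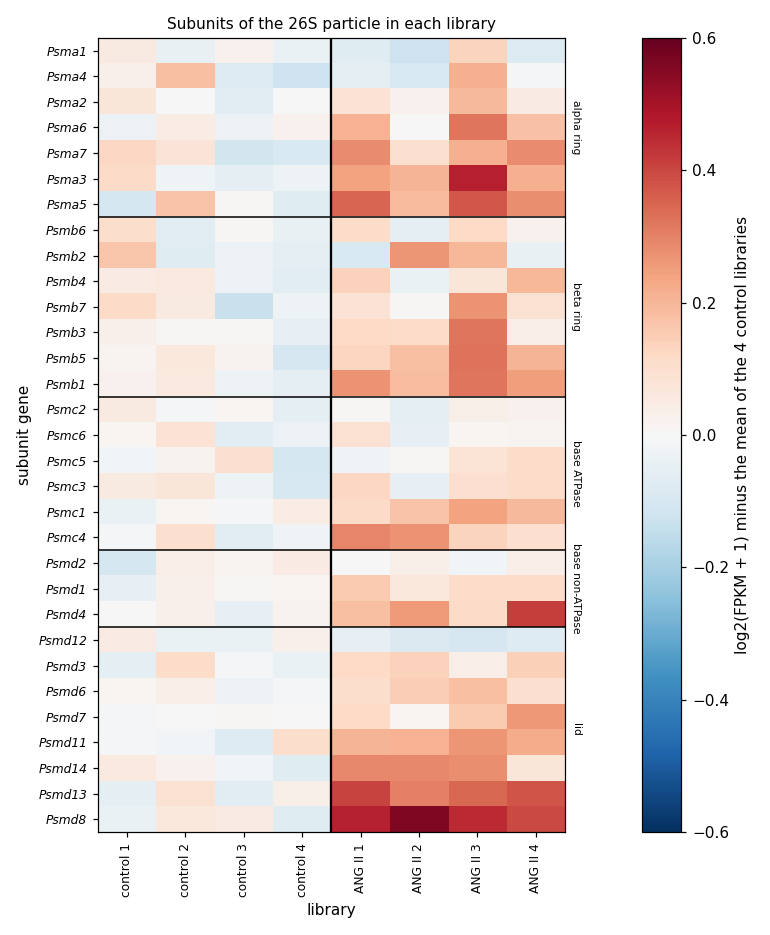
Each cell is log2(FPKM + 1) of a subunit (rows, by role) in a library (columns) minus the mean of the 4 control libraries, from -0.6 (blue) to 0.6 (red). The Psmd8 and Psmd13 rows are red in all 4 ANG II libraries, the Psmd12 row is pale blue in all 4, and ANG II 3 is the reddest column for most core subunits.

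The subunits were also read relative to the particle as a whole. When each library was centred on the median deviation of its 31 subunits, 3 subunits lay higher in every ANG II library than in every control library (Psmb1, Psmd8 and Psmd13) and 4 lay lower (Psma1, Psmc2, Psmc6 and Psmd12). Of all genes tested, 18.2% lay higher and 9.56% lower without overlap on that scale. Centring on the median places about as many subunits above 0 as below it in each library. The spread of the log2 fold changes among subunits was 0.10 (SD) in the core and 0.14 in the regulatory particle. The ratio of Psma5 to Psma1 within the alpha ring was 0.333, 0.435, 0.369 and 0.364 in control and 0.503, 0.466, 0.444 and 0.482 in ANG II. That ratio did not overlap between the groups, and this pair too was formed after the values were seen.

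The inducible subunits, which replace Psmb6, Psmb7 and Psmb5 in immune cells and after interferon, had higher means in ANG II but did not pass the test. Psmb9 gave 10.2, 5.44, 8.10 and 9.96 FPKM in control and 15.9, 7.67, 14.5 and 11.1 in ANG II, where ANG II 2 lay inside the control range. Its log2 fold change was 0.49 (95% interval -0.03 to 1.00, adjusted p = 0.137). Psmb8 gave 4.72, 2.16, 3.01 and 2.66 FPKM against 5.92, 3.34, 5.11 and 4.16, also overlapping (0.46, 95% interval 0.01 to 0.91, adjusted p = 0.108). Psmb10 gave 61.3, 35.4, 42.7 and 42.1 FPKM against 62.4, 47.2, 53.6 and 63.5 (0.33, 95% interval -0.01 to 0.68, adjusted p = 0.129). Control 1 was the highest control library for all 3 genes, and without it Psmb8 and Psmb10 passed the test (adjusted p = 0.0267 and 0.0141). Psmb9 passed without ANG II 2 (adjusted p = 0.0389). With the replicate number as a block, Psmb8, Psmb9 and Psmb10 passed (adjusted p = 0.0177, 0.0190 and 0.0340), although the labels pair no samples. The ratio of Psmb9 to Psmb6 was 0.0869 ± 0.0208 in control and 0.122 ± 0.0309 in ANG II, that of Psmb10 to Psmb7 1.22 ± 0.251 and 1.42 ± 0.213, and that of Psmb8 to Psmb5 0.141 ± 0.0491 and 0.180 ± 0.0470 (SD over 4 libraries), and all 3 ratios overlapped. The place of Psmb10 beside Psmb7 depends on transcript length: over all 8 libraries their means were 51.0 and 38.6 FPKM as deposited and 31.1 and 66.7 FPKM on the longest coding transcript, which reverses the order. Psmb8 and Psmb9 lay well below Psmb5 and Psmb6 on either length.

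Genes that work with the proteasome but fall outside the symbol rule were counted in the same fit. Of 9 associated proteins in the table, 2 rose (the ubiquitin receptor Adrm1 by 0.23 and the maturation factor Pomp by 0.30) and 1 fell (Ecpas, which tethers the particles, by 0.19), beside 28.4% and 4.91% of all genes tested. After median-of-ratios scaling 0 of the 9 rose and 3 fell, beside 14.6% and 13.1% of all genes tested. Under that scaling Adrm1 (0.0066, adjusted p = 0.947) and Pomp (0.07, adjusted p = 0.485) did not pass. The adjusted p of Ecpas, 0.0281 in all libraries, reached 0.0791 without control 3, control 4, ANG II 1, ANG II 2 or ANG II 3. The member of that list with the largest difference was Sem1, a small lid subunit, at 24.4, 24.7, 20.7 and 22.7 FPKM in control and 27.9, 25.5, 38.1 and 25.8 in ANG II. ANG II 3 was far above the rest, and Sem1 did not pass (0.31 ± 0.121, SE, adjusted p = 0.0732). Of 7 genes of the transcription programme of the proteasome, 3 rose, beside 28.4% of all genes tested. The 3 were Nfe2l1 (by 0.21) and the small Maf genes Mafg (by 0.23) and Mafk. Mafk was the only one called, beside 15.4% of all genes tested. After median-of-ratios scaling 1 of the 7 rose, beside 14.6% of all genes. Mafk gave 20.7, 20.2, 18.7 and 21.7 FPKM in control and 32.6, 33.7, 26.1 and 34.6 in ANG II. The groups were far apart, with a rise of 0.61 ± 0.090 (SE, adjusted p = 0.000719), and of 0.39 (adjusted p = 0.00846) under median-of-ratios scaling. Under that scaling the differences of Nfe2l1 and Mafg were -0.02 and 0.01, and as deposited Mafg passed the test only with all libraries or without control 1 or ANG II 3 (adjusted p up to 0.102).

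Of 6 genes for ubiquitin and its activating enzymes, 2 rose and both were called, beside 28.4% of all genes tested that rose and 15.4% that were called. Ubb, which encodes polyubiquitin, gave 164, 174, 151 and 160 FPKM in control and 237, 239, 237 and 211 in ANG II, without overlap, and rose by 0.51 ± 0.060 (SE, adjusted p = 0.000221). Rps27a, a fusion of ubiquitin with a ribosomal protein, gave 125, 127, 98.2 and 110 FPKM against 170, 145, 220 and 170, also without overlap, and rose by 0.60 ± 0.124 (SE, adjusted p = 0.00471). Both rose under median-of-ratios scaling too (0.28 and 0.37, adjusted p = 0.00871 and 0.0423), but they share 48.1% and 26.3% of their 50-base words with other genes. The activating enzyme Uba1 had a log2 fold change of 0.07. Of 12 shuttle and p97 genes, 5 rose, 0 fell and 0 were called, beside 28.4%, 4.91% and 15.4% of all genes tested. The largest difference was that of Faf2, a p97 cofactor of the endoplasmic reticulum. Faf2 gave 15.0, 15.4, 18.1 and 19.3 FPKM in control and 24.7, 23.5, 23.6 and 23.7 in ANG II, a rise of 0.48 ± 0.082 without overlap (SE, adjusted p = 0.00168). After median-of-ratios scaling 0 of the 12 rose and 3 fell, beside 14.6% and 13.1% of all genes tested. Faf2 did not pass under that scaling (0.26, adjusted p = 0.0637) or after quantile normalization (0.25, adjusted p = 0.0616).

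A complex related to the lid and an unrelated one were counted on the same scales. Of the 9 genes of the COP9 signalosome, a complex built like the lid, 2 rose and 0 fell as deposited, and 0 rose and 3 fell after median-of-ratios scaling. Cops2, its paralog of Psmd11, had the largest difference, from 60.1, 66.0, 59.4 and 64.0 FPKM in control to 76.3, 72.8, 72.6 and 71.9 in ANG II. It rose by 0.23 ± 0.050 (SE, adjusted p = 0.00542), as did Psmd11 (0.23), and neither passed under any of the other 4 scalings. Of the 8 genes of the chaperonin CCT, a complex of another family with a higher median level (125 FPKM, against 70.4 FPKM for the 31 subunits), 1 rose and 0 fell as deposited, and 0 rose and 4 fell after median-of-ratios scaling. As background, 28.4% of all genes tested rose and 4.91% fell as deposited, against 14.6% and 13.1% after median-of-ratios scaling. The median log2 fold change of the 8 was 0.02 as deposited. The largest difference there was that of Cct7, at 79.7, 72.8, 77.0 and 82.7 FPKM in control and 73.3, 69.0, 69.8 and 72.0 in ANG II (-0.13 ± 0.051, SE, adjusted p = 0.0720). It fell under all 4 other scalings, by 0.36 under median-of-ratios scaling (adjusted p = 0.00103). The median of CCT was lower than those of the core (0.11) and regulatory particle (0.13) on the same scale, a difference that was not tested.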

How the data were processed

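The authors deposited 1 table of FPKM values (fragment counts per unit of transcript length and of sequencing depth) with 1 column for each of the 8 libraries. Per the labels, Bowtie2, HISAT and RSEM were among the tools; their versions and roles, the genome build, the annotation and the use of strand were not given in the sources used here. Values were taken as deposited. Low values times the mean transcript length (GENCODE M21) were whole fragments, within 0.05 and below 60 fragments, for 99.2 to 99.4% of values of genes with 1 exon and 97.6 to 98.1% with several, which gave the depth of each library. FPKM scaled by all fragments moves with abundant transcripts, so scaling alternatives were computed.

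The model was fitted with limma 3.58.1 (R 4.3.3), using lmFit and a trended eBayes without covariates, to log2(FPKM + 1) of the 8 libraries. It covered the 19364 genes whose mean reached 0.1 FPKM. Tests were two-sided with Benjamini-Hochberg adjustment over all of them, and every adjusted p is from this fit or its named alternative. "Rose" and "fell" mean an adjusted p under 0.05, and "called" also an absolute log2 fold change above 0.5. Log2 fold changes understate the change of low genes because of the pseudocount of 1. FPKM files hold no counts, so no count test was the main one. The script was tested on simulated data. The study calls its samples biological replicates, and the labels number them without naming animals, so p-values measure the spread between these samples. No 2 libraries agreed within sampling noise.

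Alternatives were a pseudocount of 0.1, no filter or a mean of at least 1 FPKM, median-of-ratios scaling, quantile normalization, removal of the 37 mitochondrially encoded and the 10 highest genes, eBayes without the trend, a block for the replicate number and each library left out. A further 2, voom on recovered fragments and scaling on the 31 subunits, were chosen after seeing the data. The members and gene lists were chosen with earlier results of these data known. Named members were every called gene, Psmb5, Psmb6 and Psmb7, the 2 highest and 2 lowest of each role and those not tested; from the related lists the text names Psmb8, Psmb9 and Psmb10 and up to 3 called genes or else the largest difference. Other members and Adrm1, Pomp, Ecpas, Nfe2l1, Mafg and Uba1 were named after their values were seen, and 1 gene of the related lists is counted there but not reported here. Shared 50-base words and promoter letters were found with pandas 2.3.3 and numpy 2.4.6 in Python 3.11.15, and figures were drawn with matplotlib 3.10.9.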

Additional observations from a re-analysis of the deposited data

Results flagged for a closer look

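Of 99 groups of 4 libraries examined over the 47 members and Psmb8, Psmb9 and Psmb10, 7 had 1 library farther from the other 3 than Dixon's critical value allows, and chance alone gives about 1 in 20. Psma3 had a high library in each group, control 1 at 73.1 FPKM (others 64.9 to 66.3) and ANG II 3 at 93.5 FPKM (others 77.9 to 79.9). Psmb2 was high in control 1, at 83.2 FPKM against 70.2 to 72.1. Psmc3 was low in ANG II 2, at 176 FPKM against 195 to 198, and Psmd14 was low in ANG II 4, at 60.7 FPKM against 70.2 to 70.7. Psmd9 was low in control 4, at 8.999 FPKM against 11.8 to 12.1. Psmb11 was above 0 in control 3 only, at 0.0251 FPKM, which is 1 fragment.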

How the results depend on the processing

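The direction of most members depended on how the libraries were scaled. Median-of-ratios scaling divides each library by 1 factor, 0.908 to 0.956 in control and 1.07 to 1.11 in ANG II. This lowers the log2 fold changes of well-expressed members by nearly the same amount, so their sign changes are not separate results. Why the factors differed between the groups was not tested. As deposited, the median log2 fold changes of the core, the regulatory particle and the assembly and regulator members were 0.11, 0.13 and 0.097, and these medians turned negative in other scalings. Of the 46 tested members, 31 turned from positive to negative under median-of-ratios scaling (7 of the 16 that rose among them), 27 after quantile normalization, 23 with the highest genes removed and 24 on the scale of the 31 subunits, and 0 turned the other way. Scaling on the 31 subunits centres those same genes near 0, so medians near 0 and many negative values follow there by construction. The values below are those of the members named by the rule, followed under median-of-ratios scaling by the others. Under median-of-ratios scaling, the medians were -0.097, -0.095 and -0.093, and the log2 fold changes were Psma8 -0.097, Psmb2 -0.14, Psmb5 -0.010, Psmb6 -0.18, Psmb7 -0.11, Psmc1 -0.047, Psmc2 -0.22, Psmc4 -0.026, Psmc6 -0.21, Psmd1 -0.12, Psmd10 -0.093, Psmd2 -0.21, Psmd3 -0.11, Psmd9 -0.11, Psme2 -0.11, Psme2b -0.057, Psme3 -0.050 and Psmg3 -0.039, then Psma2 -0.13, Psma4 -0.21, Psma6 -0.049, Psma7 -0.0063, Psmb3 -0.079, Psmb4 -0.14, Psmc3 -0.16, Psmc5 -0.18, Psmd6 -0.095, Psmd7 -0.090, Psmd11 -0.00015, Psme4 -0.15 and Psmf1 -0.086. After quantile normalization, the medians were -0.065, -0.043 and -0.10, and the log2 fold changes were Psma8 -0.18, Psmb2 -0.097, Psmb5 -0.013, Psmb6 -0.12, Psmb7 -0.065, Psmc1 -0.0070, Psmc2 -0.18, Psmc3ip -0.089, Psmc6 -0.17, Psmd1 -0.064, Psmd10 -0.22, Psmd2 -0.19, Psmd3 -0.059, Psmd9 -0.15, Psme2 -0.048, Psme2b -0.10 and Psmg3 -0.091. With the mitochondrially encoded and the 10 highest genes removed, the medians were -0.030, -0.014 and -0.030, and the log2 fold changes were Psma8 -0.061, Psmb2 -0.063, Psmb6 -0.096, Psmb7 -0.030, Psmc2 -0.14, Psmc6 -0.13, Psmd1 -0.035, Psmd10 -0.026, Psmd2 -0.13, Psmd3 -0.033, Psmd9 -0.037, Psme2 -0.030, Psme2b -0.039 and Psmg3 -0.014. With libraries scaled on the 31 subunits, the medians were -0.032, -0.016 and -0.032, and the log2 fold changes were Psma8 -0.059, Psmb2 -0.066, Psmb6 -0.099, Psmb7 -0.032, Psmc2 -0.14, Psmc6 -0.13, Psmd1 -0.038, Psmd10 -0.028, Psmd2 -0.13, Psmd3 -0.036, Psmd9 -0.039, Psme2 -0.032, Psme2b -0.034 and Psmg3 -0.012.

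Counts of members moved as well. Of the 16 members that rose as deposited, Psmd8 and Psmd13 were the only ones to rise under any of these 4 scalings. Of the core, 5 genes were higher and 0 lower as deposited, 0 and 2 (Psma1 and Psmb6) under median-of-ratios scaling, 0 and 1 (Psma1) after quantile normalization, 0 and 0 with the highest genes removed, 0 and 1 (Psma1) on the scale of the 31 subunits, and 3 and 0 without the variance trend. Of the regulatory particle, 8 were higher and 0 lower as deposited, 1 and 6 under median-of-ratios scaling, 2 and 4 after quantile normalization, 2 and 2 (Psmc2 and Psmd12, 4 in all) with the highest genes removed, 2 and 1 (Psmd12, 3 in all) on the scale of the 31 subunits, and 5 and 0 without the variance trend. Of the assembly and regulator genes, 3 were higher and 0 lower as deposited, 0 and 3 (Psmg1, Psmg2 and Psme1) under the first 2 of these scalings and 0 in either direction under the last 2, and the call of Psmg4 was lost, leaving 0 called members, under each of the 4 scalings. By adjusted p alone, without the fold threshold, 6447 of the genes tested passed in place of 2981, and 5 core, 8 regulatory and 3 assembly and regulator members in place of 0, 0 and 1.

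Leaving out 1 library at a time gave 3 to 6 core, 6 to 9 regulatory and 0 to 3 assembly and regulator genes at an adjusted p under 0.05, and 0 to 1 called member. The core count was 3 without control 3, control 4, ANG II 3 or ANG II 4, the assembly and regulator count was 0 without control 4 and 1 without ANG II 1 or ANG II 4, and Psmg4 was not called without control 2, control 4 or ANG II 4. Members near 0 changed sign: Psma4 ranged from -0.052 to 0.074, Psma8 from -0.086 to 0.089, Psmc2 from -0.015 to 0.022, Psmc6 from -0.0076 to 0.046, Psmd2 from -0.020 to 0.032, Psme2b from -0.15 to 0.13 and Psmg3 from -0.0060 to 0.085. The pseudocount, the filters and voom on recovered fragments moved no count of members by more than 1.5 times. Depth limits Psma8, Psmb11, Psmg3 and Psme2b, which had at most 18 fragments in a library.

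Across all genes together the replicate numbers showed no pairing: deviations of same-numbered libraries from their group means correlated at -0.02, 0.06, -0.03 and -0.01. Such a correlation cannot exclude a pairing that affects only some genes. With the replicate number as a block, 3 core, 7 regulatory and 2 assembly and regulator genes had an adjusted p under 0.05. Psma7 (adjusted p = 0.0596), Psmb5 (0.0538), Psmd6 (0.0972), Psme3 (0.0822) and the associated gene Ecpas (0.0588) no longer passed, and Psmb8, Psmb9 and Psmb10 passed (0.0177, 0.0190 and 0.0340). The block changed the result of no other gene whose values the text gives.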
